A study of Mus musculus with 6 samples.

Results

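Genes of striated muscle, the muscle of skeleton and heart, were examined in the developing mouse midgut with and without Id2. The list holds 10 genes, namely the myosin light chain genes Myl1, Myl4 and Mylpf, the embryonic myosin heavy chain gene Myh3, the troponin genes Tnnc1, Tnni1, Tnnt1 and Tnnt3, the cardiac actin gene Actc1 and the myogenin gene Myog. Members were all array probes that the platform annotation names with one of these symbols, second probes of a gene included, which gave 10 of the 33012 probes on an array. They stand for 9 of the 10 genes. Myl1 has 2 probes, which the annotation assigns to the same transcript, and Myh3 was not analysed here.

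RNA came from the distal part of the midgut of mouse embryos at E13.5 (E for embryonic day). It was measured in 3 Id2+/+ (wild-type) and 3 Id2-/- (knockout) samples with 1 single-color array per sample, numbered 1 to 3 within each genotype. The knockout lacks Id2 in every cell, and the labels call the embryos littermates. The methods give an inbred or a mixed background for the Id2 mutant line without saying which one these embryos had. No source says whether 1 embryo or a pool made up a sample, so each p-value covers only the spread among these samples, which may be technical. Id2 itself was not analysed here, and the genotypes rest on the labels.

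Striated muscle contracts through sarcomeres, in which thick filaments of myosin pull on thin filaments of actin. Light chains sit on the neck of each myosin head, and the troponin complex on the thin filament lets calcium switch contraction on. In skeletal muscle precursors these genes are turned on by basic helix-loop-helix (bHLH) factors such as myogenin and MyoD, which pair with E proteins and bind the E-box. Id2 lacks a DNA-binding region and holds E proteins in pairs that cannot bind. The muscle of the midgut wall is smooth muscle, which uses other actins, other myosins and no troponin. Actc1 is known as the actin of the heart and of early skeletal muscle.

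Because the E-box is the site bound by the factors that Id proteins hold back, the start regions were read from RefSeq promoter windows (build GRCm38.p6). These windows run from 250 bases before to 50 bases after the annotated start. The table gave windows for 9 of the 10 genes, all but Tnnt3, with 2 for Tnni1. The windows of Myl1 at chr1:66945007-66945306 (minus strand), Mylpf at chr7:127211358-127211657 (plus strand) and Actc1 at chr2:114052826-114053125 (minus strand) are shown 5′ to 3′ on the strand of the gene. Myl1 is shown as the gene with the same direction on 2 probes, Mylpf as its fast-muscle partner chain, and Actc1 as a member above background on every array. Capitals mark E-boxes (CANNTG, which reads as CANNTG on the other strand too) and, in Actc1 alone, also a CArG box, the site of serum response factor.
Myl1: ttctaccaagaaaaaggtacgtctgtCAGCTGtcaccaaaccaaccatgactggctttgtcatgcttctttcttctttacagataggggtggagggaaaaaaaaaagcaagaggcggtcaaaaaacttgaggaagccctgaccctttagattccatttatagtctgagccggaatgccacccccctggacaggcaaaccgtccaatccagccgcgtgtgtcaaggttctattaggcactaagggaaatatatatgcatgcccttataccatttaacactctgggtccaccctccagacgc
Mylpf: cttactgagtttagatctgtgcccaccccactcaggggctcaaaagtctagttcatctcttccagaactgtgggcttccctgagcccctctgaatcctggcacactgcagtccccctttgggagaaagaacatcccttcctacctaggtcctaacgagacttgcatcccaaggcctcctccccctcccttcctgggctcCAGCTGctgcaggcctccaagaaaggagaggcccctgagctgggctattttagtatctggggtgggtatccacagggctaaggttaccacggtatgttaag
Actc1: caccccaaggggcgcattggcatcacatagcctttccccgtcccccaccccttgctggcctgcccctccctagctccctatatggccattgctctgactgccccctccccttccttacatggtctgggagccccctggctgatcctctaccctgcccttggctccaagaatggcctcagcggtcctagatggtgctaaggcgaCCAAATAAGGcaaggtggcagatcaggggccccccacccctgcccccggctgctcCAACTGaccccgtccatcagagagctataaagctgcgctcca

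The E-box of both light chain genes was CAGCTG, with its first base at position -224 from the start in Myl1 and at -51 in Mylpf. In Actc1 the E-box CAACTG lay downstream of the start, at position 9, and the CArG box at -47. At least 1 E-box was present in windows of 8 of the 9 genes, and 72.3% of all 32851 windows held one. The Myl4 window was the one without it. CAGCTG was present in Myl1, Mylpf and Tnni1, 3 of 9 genes, and in 16.3% of all windows. The CArG box was present in Actc1 alone, 1 of 9 genes, and in 1.63% of all windows. A match is a description of the letters in these windows.

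A probe with a signal-to-noise score of at least 3 is called above background here. Probes without a quality flag on any array entered the test if one genotype or both had all 3 arrays above background, as 12741 probes did. Of the 10 member probes 7 were tested, for Myl1 (both probes), Myl4, Mylpf, Tnnt1, Tnnt3 and Actc1. The dimmer Myl1 probe and Tnnt3 passed only through the Id2+/+ arrays, so that neither could have been tested unless its wild-type signal was high. Between 13891 and 16543 probes were above background per array. The arrays numbered 1 stood apart in both genotypes, with correlations of 0.909 to 0.931 across probes with the other arrays and 0.984 with each other. The arrays numbered 2 and 3 correlated most with each other within a genotype (0.988 in Id2+/+ and 0.987 in Id2-/-), not with the same number. In the same-numbered pairs 1, 2 and 3 the tested probes had median differences of 0.35, -0.04 and -0.19. All levels below are log2 of the median-normalized signal, all differences are Id2-/- minus Id2+/+ on that scale, and the pair values were not corrected for these medians. Levels are not compared between probes, and sums over a marker list serve only to compare arrays.

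Myl1, which encodes the essential light chains of fast and embryonic skeletal myosin, had a lower signal on every Id2-/- array than on any Id2+/+ array, with both of its probes. The brighter probe (690030) was above background on all 6 arrays, with levels of 4.55, 4.34 and 4.65 on the Id2+/+ arrays and 3.50, 4.05 and 3.92 on the Id2-/- arrays. The Id2+/+ mean of 4.51 ± 0.16 (SD, n = 3) stood against 3.82 ± 0.28 (SD, n = 3) in the knockout. That is a difference of -0.69 (standard error 0.25) or a 1.61-fold lower signal, and the 3 pairs differed by -1.04, -0.29 and -0.73. The dimmer probe (616487) had levels of 2.13, 0.73 and 1.47 on the Id2+/+ arrays. On the Id2-/- arrays it had levels of 0.32, -0.50 and -0.68, of which only the first was above background. Its mean was 1.44 ± 0.70 (SD, n = 3) in the wild type and -0.28 ± 0.53 (SD, n = 3) in the knockout, a difference of -1.73 (standard error 0.43) or 3.31-fold, and the pairs differed by -1.81, -1.23 and -2.15. Both probes thus had the same sign in every pair. The dimmer one was tested only because of its Id2+/+ signals, so its sign is no separate support for that of the brighter one.

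Neither Myl1 difference passed the test without the block. In limma with Benjamini-Hochberg adjustment over all 12741 tested probes the adjusted p was 1.0 for both, with unadjusted p of 0.029 and 0.0050. With the array number as a replicate block the dimmer probe passed (adjusted p = 1.26e-07, limma) and the brighter one did not (adjusted p = 0.28). Adding quantile normalization to the block ended the call of the dimmer probe (adjusted p = 0.30, limma), as did adding arrays centered on the median of the tested probes (adjusted p = 0.26), with differences of -1.81 and -1.77. Since the tissue was measured in bulk, fewer cells with this RNA and less RNA per cell cannot be told apart, for this or any later value. Which cells gave the Myl1 signal was not tested.

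**Figure D1:**
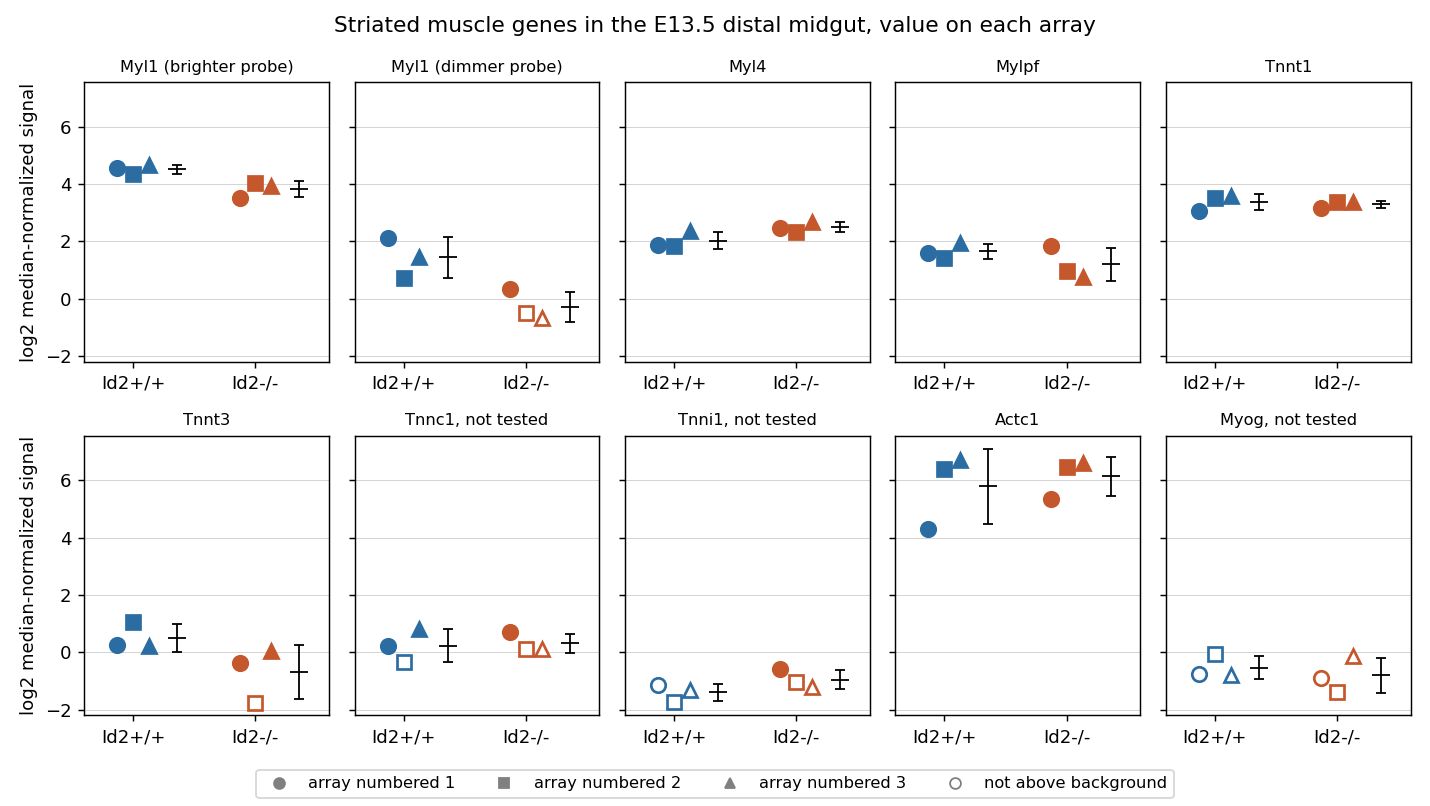
Log2 median-normalized signal of the 10 member probes on each array (circle, square and triangle for the arrays numbered 1, 2 and 3; blue Id2+/+, orange Id2-/-; open symbols not above background), with the mean and SD of each genotype as black bars. The genotypes do not overlap for both Myl1 probes and Tnnt3, and Actc1 is lowest on the arrays numbered 1, at 4.28 and 5.36.

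The other light chains differed in sign between each other, and neither passed. Mylpf, the regulatory light chain of fast skeletal muscle, had levels of 1.59, 1.42 and 1.94 on the Id2+/+ arrays and 1.85, 0.96 and 0.77 on the Id2-/- arrays. The Id2-/- arrays numbered 2 and 3 were below every wild-type array, and the one numbered 1 was among them. The difference was -0.45 (standard error 0.35), with pairs of 0.26, -0.46 and -1.16, and moved to -0.81 without the arrays numbered 1 and to -0.25 without the Id2-/- array numbered 3. Myl4, the essential light chain of the atria and of embryonic muscle, had levels of 1.89, 1.84 and 2.35 on the Id2+/+ arrays and 2.46, 2.34 and 2.68 on the Id2-/- arrays. It was higher in all 3 pairs, by 0.58, 0.50 and 0.32, and the genotypes overlapped only through the highest Id2+/+ and the lowest Id2-/- array, 2.35 against 2.34. Its difference was 0.47 (standard error 0.26). With or without the replicate block both genes missed the threshold (adjusted p = 1.0 in limma for both genes in both fits).

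Of the troponins, Tnnt3, the fast skeletal troponin T that ties the complex to tropomyosin, had levels of 0.26, 1.06 and 0.20 on the Id2+/+ arrays and -0.38, -1.76 and 0.05 on the Id2-/- arrays. The genotypes did not overlap, but the Id2-/- array numbered 3, at 0.05, was close to the lowest wild-type array, at 0.20. The Id2-/- array numbered 2 was the single one not above background. The difference was -1.20 (standard error 0.50), or 2.30-fold, with pairs of -0.64, -2.82 and -0.15. Leaving out that array gave -0.67. In limma the adjusted p was 1.0 without the block, 0.0012 with the replicate block, 0.75 once quantile normalization was added to the block and 0.73 once centered arrays were.

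Tnnt1, the slow skeletal troponin T, was above background on all 6 arrays and nearly level between the genotypes. Its levels were 3.05, 3.51 and 3.58 on the Id2+/+ arrays and 3.16, 3.36 and 3.36 on the Id2-/- arrays, a difference of -0.09 (standard error 0.25) with pairs of 0.10, -0.15 and -0.22. Tnnc1, the calcium-binding troponin C of slow and heart muscle, had levels from -0.34 to 0.80 on the Id2+/+ arrays and from 0.11 to 0.70 on the Id2-/- arrays. It was above background on 2 Id2+/+ arrays and 1 Id2-/- array and was not tested. Tnni1, the inhibitory subunit of slow skeletal muscle, was above background on the Id2-/- array numbered 1 alone, at -0.60. Its other values lay between -1.71 and -1.03, and it was not tested.

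Actc1 was well above background on every array, and its level differed more between array numbers than between genotypes. It had levels of 4.28, 6.39 and 6.70 on the Id2+/+ arrays and 5.36, 6.46 and 6.59 on the Id2-/- arrays. Both arrays numbered 1 were lower than the other 4, among which the levels spanned 6.39 to 6.70. The mean was 5.79 ± 1.31 (SD, n = 3) in the wild type and 6.14 ± 0.67 (SD, n = 3) in the knockout, and the pairs differed by 1.08, 0.07 and -0.11. The difference of 0.35 (standard error 0.67) did not pass (adjusted p = 1.0 in limma with and without the replicate block) and was -0.02 without the arrays numbered 1.

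Myog, the bHLH factor that drives the fusion and differentiation of muscle precursors, was above background on no array. Its highest score was 2.27, on the Id2+/+ array numbered 2, and its levels lay between -0.77 and -0.07 on the Id2+/+ arrays and between -1.37 and -0.14 on the Id2-/- arrays. It was not tested.

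**Figure D2:**
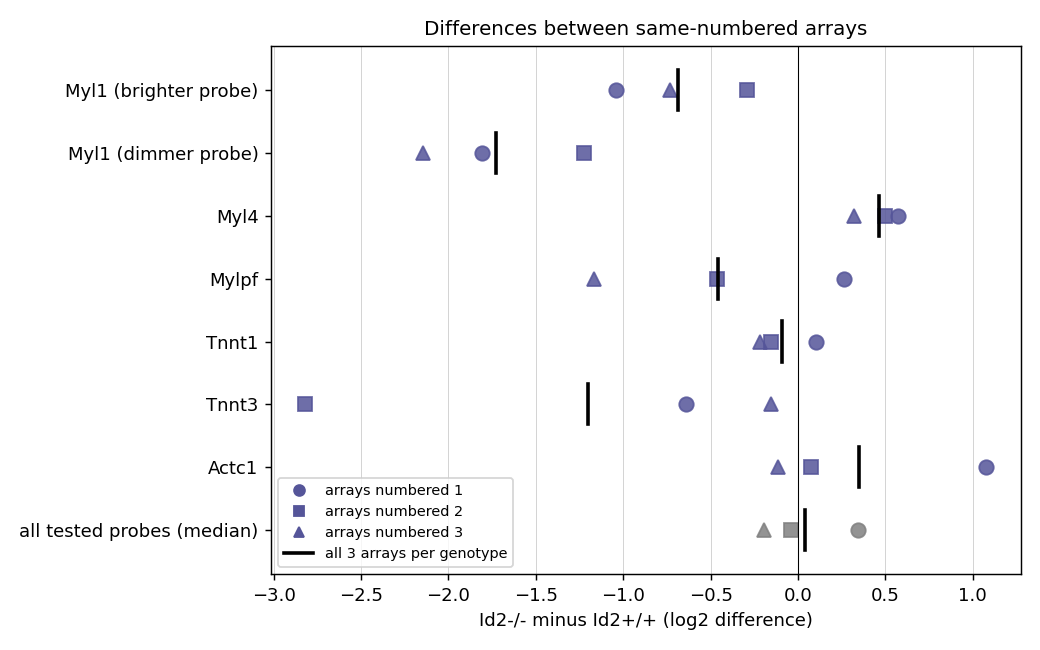
Id2-/- minus Id2+/+ log2 difference of each of the 7 tested member probes within the same-numbered arrays (symbols) and over all 3 arrays per genotype (black lines), with the median over all 12741 tested probes in grey. Both Myl1 probes and Tnnt3 lie below 0 in all 3 pairs, Myl4 lies above 0 in all 3, and the remaining probes take both signs.

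Across the 7 tested member probes the median difference was -0.45, with 5 below and 2 above 0, beside a median of 0.04 over all tested probes. It was -0.27 with the brightest probe per gene and -0.090 without the dimmer Myl1 probe and Tnnt3, so the -0.45 rests on those probes. Over all 10 member probes it was -0.18, with 6 below and 4 above 0. By pair the median of the 7 was 0.10, -0.29 and -0.22. The genotypes did not overlap, with Id2-/- lower, for 3 of the 7, against 1.29% of all tested probes, and 2 of those 3 were tested only because of their wild-type signals. None of the 7 lay wholly higher in Id2-/-, against 2.73% of all tested probes. With 3 arrays per genotype the smallest p of an exact permutation test is 0.1. In limma without the block 0 of the 7 passed, as did 0.0% of all tested probes, and 3 had an unadjusted p under 0.05. The methods' t-test passed 0 probes of all tested after Benjamini-Hochberg adjustment too, with 242 at an unadjusted p under 0.05 against 234 in limma. With the replicate block 2 of the 7 were lower, against 1.12% of all tested probes, and 0 were higher, against 1.06%. Those 2 are the dimmer Myl1 probe and Tnnt3, which entered the test only through their wild-type signals, and both calls were lost when quantile normalization or centered arrays were added to the block. That fit gave every probe the same standard error of 0.27.

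Among other sarcomere genes none passed the test in limma, with or without the replicate block. Above background on no array were 4 of 9 thick filament genes, 2 of 8 thin filament genes and 8 of 15 Z-disc and titin genes. The share of all named genes above background on no array was not counted. Of the thick filament genes with a named probe 2 of 9 were tested. Over all named genes on the array 7322 of 13840 were, a share to set beside the later lists too. Myl2, the regulatory light chain of the ventricle and of slow muscle, differed by 0.31 with pairs of 1.01, 0.09 and -0.17, and Myl7, the atrial one, by -0.18 with pairs of 0.38, -0.34 and -0.58. The heavy chain Myh6 and the myosin-binding protein Mybpc3 were above background on no array. Of the other thin filament genes 4 of 8 were tested. Tnnc2, the fast troponin C, had levels of 0.40, 0.89 and -0.29 on the Id2+/+ arrays and 0.79, 0.78 and 1.61 on the Id2-/- arrays, so the genotypes overlapped. Tnni2, the fast troponin I, differed by 0.01 and Tpm3, a tropomyosin that other cells make too, by 0.07. Of the Z-disc and titin genes 2 of 15 were tested, Pdlim3 at 0.23 and Myom1 at -0.11.

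The machinery that couples excitation to contraction was measured for 5 of 23 genes with a named probe, with a median difference of 0.35, and 12 of the 23 were above background on no array. Eno3, the muscle enolase, differed by -0.37, Casq2, the calcium-storing calsequestrin of the heart, by 0.35, and Cav3, the caveolin of muscle, by 0.45. Eno3 lay wholly lower in Id2-/-, as did 1.29% of all tested probes. Cav3 and Ckmt2, the latter with a difference of 0.36, entered the test only through their Id2-/- signals. The list median of 0.35 thus rests partly on genes tested because of their knockout signals. Of the muscle regulators 3 of 16 were tested and 9 were above background on none, among them Myod1, Myf5, Pax3 and Pax7. Mef2c and Mef2d, partners of the myogenic bHLH factors that other cells use as well, differed by 0.18 and 0.37, and Smyd1, a methyltransferase of striated muscle, by 0.10. Mef2d lay wholly higher in Id2-/-, as did 2.73% of all tested probes. Of the E proteins and their inhibitors 4 of 6 were tested. Tcf12 and Tcf4, which encode E proteins, differed by 0.14 and 0.09, and Id1, another Id gene, by 0.53 with pairs of 0.48, 0.60 and 0.51. In these 3 lists too 0 genes passed with or without the replicate block.

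**Figure D3:**
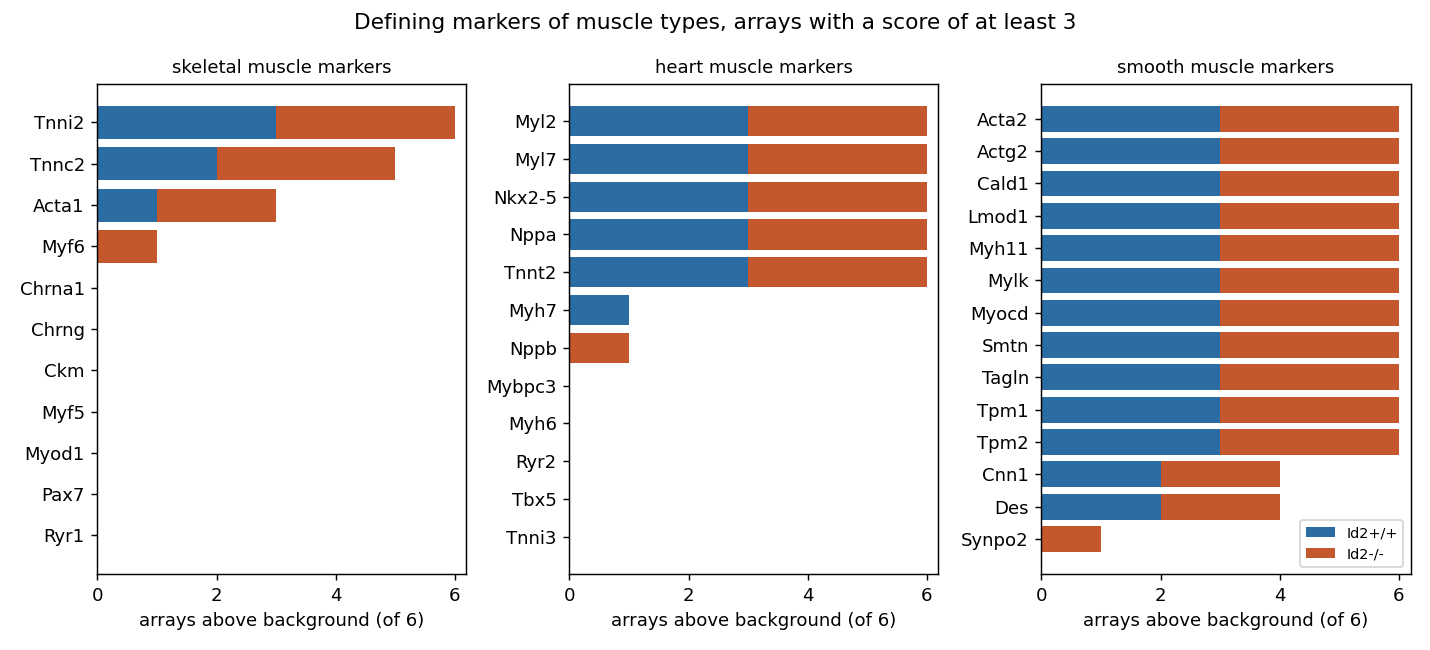
Number of arrays (of 6; blue Id2+/+, orange Id2-/-) on which each marker gene of skeletal, heart and smooth muscle with a named probe was above background, taking the best probe of a gene. Of 11 skeletal markers 7 are on no array, of 12 heart markers 5 are, and of 14 smooth muscle markers none is.

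The labelled tissue was checked against markers of the cells it could hold. Of the smooth muscle markers 11 of 14 were tested and above background on all 6 arrays, and of the epithelial markers 13 of 14 were. The defining skeletal markers Myod1, Myf5, Pax7, Chrna1, Chrng, Ckm and Ryr1 were above background on no array, Myf6 on 1 and Acta1 on 3. Tnni2 stood apart from them, with levels between 5.45 and 5.94 on all 6 arrays. The summed linear signal of the 2 tested skeletal markers was 45.0 to 63.2 on the Id2+/+ arrays and 50.5 to 61.0 on the Id2-/- arrays, a sum made up almost wholly of Tnni2. Tnnc2, the other one, differed by 0.73 with pairs of 0.39, -0.11 and 1.91. Tnnc2 entered the test only through its Id2-/- signals, and the 1.91 rests on an Id2+/+ value not above background. Of 12 heart markers 5 were tested, namely Nppa, Myl2, Nkx2-5, Myl7 and Tnnt2, and Myh6, Tnni3, Mybpc3, Tbx5 and Ryr2 were above background on no array. Nkx2-5 is also known in gut mesenchyme. Their summed signal was 43.2 to 61.9 on the Id2+/+ and 46.9 to 64.8 on the Id2-/- arrays. All 13 tested epithelial markers had a lower mean in Id2-/-, with a median of -0.28 and pair medians of 0.43, -0.48 and -0.82, while their summed signal overlapped, at 577 to 1552 in Id2+/+ and 808 to 924 in Id2-/- samples. The 5 tested red cell markers had a median of 0.72 but did not move together. Hba-a1 and Alas2 were nearly level, at 0.02 and 0.04, higher in pair 1 and lower in pairs 2 and 3. Hba-x, an embryonic globin, differed by 0.88 with pairs of 1.40, 0.55 and 0.69 and did not overlap between the genotypes. Hbb-bh1 and Hbb-y were higher in all 3 pairs and overlapped. The summed signal of the 5 was 1239 to 1785 in Id2+/+ and 1498 to 2338 in Id2-/- samples. Tnmd, the tendon gene tenomodulin, differed by 1.08 with pairs of 1.45, 0.98 and 0.81, did not overlap and passed in limma with the replicate block alone (adjusted p = 0.0064). That call was lost when quantile normalization (adjusted p = 0.27, limma) or centered arrays (adjusted p = 0.19) were added to the block. Like Tnmd and Hba-x, 2.73% of all tested probes lay wholly higher in Id2-/-, and 1.06% were called higher with the block. The part of these lists in the Myl1 and Tnnt3 values was not tested.

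The low Actc1 levels on the arrays numbered 1 were shared by some smooth muscle genes and not by others. Genes of other cell types differed in the same way. The epithelial Cdh1 was lowest on both arrays numbered 1, at 4.66 and 5.55, and the mesothelial Upk3b was highest there, at 6.59 and 5.84. Acta2, the smooth muscle actin, had levels of 3.84, 5.96 and 6.18 on the Id2+/+ arrays and 4.84, 5.78 and 5.84 on the Id2-/- arrays, lowest on both arrays numbered 1, as Actc1 was. Of the 11 tested smooth muscle genes 6 were lowest on the array numbered 1 in both genotypes (Acta2, Actg2, Tagln, Mylk, Tpm2 and Lmod1), and 2 were highest there (Tpm1 and Cald1). Tpm1, a tropomyosin, had levels of 7.48, 4.67 and 4.89 on the Id2+/+ arrays and 7.69, 4.75 and 4.80 on the Id2-/- arrays. The genes most like Actc1 over the 6 arrays were no smooth muscle markers, namely Nptxr, Plekha3, Pfkp, Chl1 and Glyr1, with r between 0.995 and 0.999, and Acta2 had r = 0.992. With the means of the array numbers removed, r lay between 0.949 and 0.998 for these 6 genes. What then remains of a gene is its pair differences between the genotypes alone, so these values are no separate check. Whether the Actc1 probe also takes up RNA of the closely related actins was not tested. The 11 tested smooth muscle genes had a median difference of 0.16, with pair medians of 0.71, 0.04 and -0.39, and 0 passed with or without the replicate block. Their summed signal was 1170 to 2834 on the Id2+/+ and 1856 to 1985 on the Id2-/- arrays, lowest on both arrays numbered 1.

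**Figure D4:**
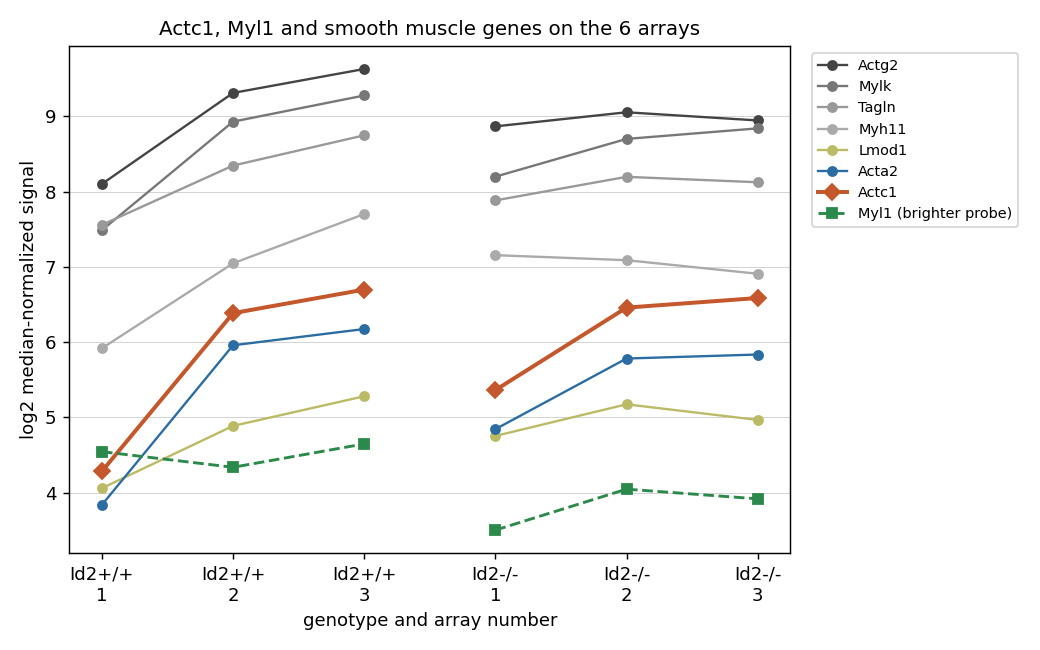
Log2 median-normalized signal of Actc1 (orange diamonds), the brighter Myl1 probe (green squares) and 6 smooth muscle genes (circles) on the 6 arrays, with lines joining the arrays of a genotype only to guide the eye. Actc1 and Acta2 are both lowest on the arrays numbered 1, at 4.28 and 5.36 for Actc1 and 3.84 and 4.84 for Acta2, whereas Myl1 is higher on each Id2+/+ array than on any Id2-/- array.

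The genes whose levels were most like those of the brighter Myl1 probe were ranked by Pearson correlation over the 6 arrays among 7316 named genes that are no members. They were Slc27a2, an acyl-CoA synthetase of fatty acid uptake (r = 0.965), Ogn, a matrix proteoglycan (r = 0.959), Clec12a, a lectin of myeloid cells (r = 0.946), Edn1, the vessel peptide endothelin (r = 0.927), and Cbln2, a secreted synaptic protein (r = 0.921). All 5 had lower means in Id2-/-, between -0.44 for Ogn and -2.37 for Cbln2, so the ranking partly repeats the split by genotype. For the mean of the 6 tested member genes the closest were Naprt (r = 0.988), Ccn2 (r = 0.977), Cdh17 (r = 0.967), Fbp2 (r = 0.965) and Rps6kl1 (r = 0.965). With the means of the array numbers removed, these 10 correlations lay between 0.949 and 0.9995. What then remains of a gene is its pair differences between the genotypes, so these values restate the genotype split and are no separate check. All the correlations describe 6 arrays that share a platform, among which those numbered 1 stand apart.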

How the data were processed

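RNA from the distal midgut was amplified, labeled and hybridized to Applied Biosystems mouse genome survey arrays (version 2.0). The deposited intensity is the authors' signal divided by the median of the unflagged spots of each array, which lay between 708 and 1010.4, and the deposited score is the signal-to-noise value of the scanner software. The methods exclude flags under 5000; here flags of 5000 or more were taken as bad, which left 32189 probes. Background subtraction was not stated. The deposited table of the series holds the same values (largest difference 0). Genes were named from the platform annotation, with symbols updated through a RefSeq table (assembly GRCm38.p6): 14411 probes have 1 symbol, 247 several and 18354 none. No probe coordinates are printed, as the build of the probes was not stated. From there, log2 values were tested with limma 3.58.1 (lmFit and eBayes) in R 4.3.3 and adjusted by Benjamini-Hochberg over 12741 probes at 0.05. The script was tested on simulated data. Same-numbered arrays deviated together from the mean of their genotype (correlations of 0.838, 0.644 and 0.579, all over 0.1). Within a genotype the deviations cancel out. The arrays numbered 1, which stood apart, thus partly set the values of pairs 2 and 3. Those values therefore cannot show that the arrays numbered 2 or those numbered 3 belong together. Same-numbered arrays were treated as pairs, a pairing that comes from the values and not from the labels. Named genes are all member probes, the 3 tested genes of each list with the smallest unadjusted p, markers by their number of arrays above background, and the 5 genes most like Myl1 and like the mean of the members; Actc1, its smooth muscle counterparts and the genes most like it were described after their values were seen. In the lists the brightest tested probe stands for a gene. Members and lists were chosen with earlier results of these data known. Alternatives were other normalizations, filters, an offset, a trended robust prior, the replicate block, other tests and leaving out arrays. Other lists, of midgut endoderm, neural crest, mesothelium, interstitial cells, cartilage, red cells and neural tube, gave 0 genes that passed without the block and 2 with it (Tnmd of cartilage and body wall and Olig2 of neural tube, both higher in Id2-/-). Olig2 entered the test only through its Id2-/- signals. Both calls were lost when quantile normalization or centered arrays were added to the block. The number of arrays limits the precision. Figures were drawn with matplotlib 3.10.9.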

Additional observations from a re-analysis of the deposited data

How the results depend on the processing

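The differences of the 2 Myl1 probes, Myl4, Mylpf and Tnnt3 kept their direction under every alternative in which they were tested. For both Myl1 probes and Tnnt3 the genotypes did not overlap, so leaving out arrays could not have turned the sign. The replicate block and the trended robust prior leave the difference itself unchanged by design. The replicate block was the alternative that changed calls, with 278 probes of all tested and 2 of the member probes passing in place of 0, and adding quantile normalization or centered arrays to the block brought both counts back to 0. The median difference of the tested member probes, -0.45, was -0.090 when all 6 arrays had to reach a score of 3, since the dimmer Myl1 probe and Tnnt3 are then left out, and lay between -0.57 and -0.25 when arrays were left out (-0.25 without the Id2-/- array numbered 3). The Actc1 difference turned to -0.02 without the arrays numbered 1 and to -0.41 without the Id2+/+ array numbered 1, and reached 0.80 without the Id2+/+ array numbered 3. The Tnnt1 difference turned to 0.0076 without the Id2+/+ array numbered 3 and lay at -0.25 without the one numbered 1. For the dimmer Myl1 probe the difference lay between -2.08 and -1.38 when arrays were left out and for Tnnt3 between -1.58 and -0.67. An offset of 50% of the median before the logarithm brought them to -1.28 and -0.74. Leaving out both arrays numbered 1, the centered arrays and the block with centered arrays were chosen after the data were seen. A block for slide or scan was not run, since neither was used here. Signals near background limit the dimmer Myl1 probe and Tnnt3, whose Id2-/- values rest partly on signals not above background.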
